A study of Mus musculus with 4 samples.

Results

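The genes described here drive the cell division cycle and DNA replication in mouse embryonic fibroblasts, connective tissue cells grown from embryos. They were taken from a list of 45 genes as the probe sets whose annotation names exactly 1 of those symbols. Of the 45 genes, 41 had such a probe set, with 57 probe sets among the 12488 on the array. The list held 23 genes of S phase and replication, 18 of G2 and mitosis and 4 of G1. It was chosen with earlier results of these data known. Ccnb1, Cdc25b, Bub1b and Tyms had no probe set of their own under this rule and were not analysed here.

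RNA from wild-type and XIAP knockout fibroblasts was hybridised to 4 Affymetrix U74Av2 arrays, which carry short oligonucleotide probes and 1 colour of label. The groups were wild-type unstimulated, wild-type with TNFa, knockout unstimulated and knockout with TNFa, with 1 array each. TNFa (tumour necrosis factor, TNF below) was given to confluent cells at 20 ng/ml for 4 hours. All cells grew in the same serum-containing medium and were passaged every few days. XIAP is an inhibitor of apoptosis, and the knockout lacks its gene. The labels used here do not state the strain, the age of the embryos, how many embryos lie behind a culture or whether the cells had been immortalised. Each genotype is therefore known here from a single set of cultures, and any other difference between those cultures cannot be told apart from the genotype.

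Values are probe set signals on a linear scale. The median signal per array was between 150 and 182, and the wild-type array with TNF had the lowest median. Signals up to 92.5, the 40th percentile over all arrays, were set to that floor before log2 differences were taken, because dim signals have no reliable order. Of 10 fibroblast marker genes all were above the floor on at least 1 array, although Vim, a fibroblast filament gene, reached only 42.1 to 94.5. Their summed signal was 75186 and 71670 in wild-type and 75148 and 71190 in knockout cells without and with TNF. Markers of epithelial, endothelial, leukocyte, muscle and neural cells had 1 of 6, 2 of 4, 3 of 6, 3 of 4 and 3 of 4 genes above the floor. Their summed signals on the 4 arrays were 389 to 664, 155 to 358, 285 to 657, 443 to 515 and, for the neural list, 2064 and 2613 in wild-type and 3651 and 4602 in knockout cells. The leukocyte gene Ptprc and the epithelial gene Epcam stayed at or below 9.2. Other genes of these lists were above the floor on every array. Epithelial Cdh1 was at 296.8 to 530.5, and leukocyte Cd68 was at 112.6 to 144.9. Muscle Myod1 was at 147.9 to 211.8 and Myog at 141.3 to 205.9. Leukocyte Csf1r was at 113.9 to 373.2 on its brighter probe set, while its dimmer one stayed below the floor. The neural sum was mainly Tubb3, on its brighter probe set. Its dimmer one went the other way, at 285 and 322 in wild-type and 171 and 175 in knockout cells. Neural Nes was also higher in knockout cells on its brighter probe set, at 274 and 278 in wild-type and 420 and 715 in knockout cells. The dimmer probe set of Nes stayed below the floor. The part of the neural markers in the results was not tested. Xiap was above the floor on every array, at 239 and 126 in wild-type and 180 and 120 in knockout cells without and with TNF, and its probe sets do not check the genotype because the deleted part is not stated. Nfkbia, an immediate target of TNF signalling, had signals of 585 and 738 without TNF and of 3626 and 4357 with TNF in wild-type and knockout cells.

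Cells copy their DNA in S phase and separate the copies in mitosis. In S phase a helicase ring of MCM proteins opens the DNA, polymerase alpha and primase start new strands, the PCNA clamp holds the replicative polymerases, and ribonucleotide reductase and thymidine kinase supply nucleotides. Cyclins, which activate the cyclin-dependent kinases, order these steps. E2F transcription factors switch on many S-phase genes, and genes of mitosis are commonly controlled through a promoter element called CHR together with CCAAT boxes. These transcripts are low in resting fibroblasts and abundant in dividing ones.

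Of the 41 genes on the array, 39 were above the floor on at least 1 array and 38 on all 4. The S-phase genes Mcm6 and Ccne2 lay below it everywhere, with signals of 6.5 to 10.5 for Mcm6 and of 14.8 to 36.9 for Ccne2. Where a gene had several probe sets, as 14 did, the one with the highest mean signal stands for the gene.

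The knockout fibroblasts carried more transcript of most cell cycle genes than the wild-type fibroblasts, both without and with TNF. For 32 of 39 measured genes both knockout arrays were above both wild-type arrays, whereas this held for 28.8% of all 6174 measured genes. All 15 measured mitotic genes and 15 of 20 S-phase genes were of this kind. Ccnd2 was the 1 gene with both knockout arrays below both wild-type arrays, where the background was 25%. In bulk RNA, more cells in cycle and more RNA per cycling cell cannot be told apart.

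Without TNF, knockout signals exceeded wild-type ones 2-fold or more for 7 of 39 genes and none was 2-fold lower, beside 4.55% and 4.7% of 6062 genes. With TNF the counts were 11 and none, beside 5.62% and 5.01% of 5852 genes; the 11 became 7 with equal array medians or with probe sets of a gene averaged, and equal medians made Ccnd2 2-fold lower. The median log2 difference without TNF was 0.86 for the mitotic genes, 0.46 for the S-phase genes and -0.01 for all genes. With TNF it was 0.88, 0.42 and 0.07. The middle portion of the mitotic genes, from the lower to the upper quartile, ran from 0.58 to 1.09 without TNF and from 0.72 to 1.14 with TNF. For the S-phase genes it ran from 0.19 to 0.67 and from 0.35 to 1.00. The ranges of both groups therefore overlap, and the difference between their medians was not tested. With 1 array per group these differences have no replicate check.

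An additive model of genotype and TNF over the 4 arrays gave the only test available. It was fitted with limma across 6174 genes with Benjamini-Hochberg adjustment. Its single residual degree of freedom is the difference of TNF response between the genotypes, so its p-values lean on a variance shared among genes, without replicate cultures, and measure no spread between cultures. In this fit 21 of 39 cell cycle genes rose in the knockout at an adjusted p under 0.05 and none fell, beside 11.4% of all genes higher and 10.4% lower. At an unadjusted p under 0.05, 26 were higher and 1 lower, beside 18.6% and 16.5% of all genes. The 21 genes comprised 12 of 15 mitotic genes, 8 of 20 S-phase genes and 1 of 4 G1 genes. The calls of 9 of them were lost under at least 1 other processing, with the highest adjusted p in limma between 0.069 for Ccnb2 and 0.359 for Cdk4. Ccnb2, Pcna and Cdk4 lost theirs with equal array medians or without an intensity trend, Bub1 and Cdc6 with a lower floor or averaged probe sets, Mcm5 and Rrm1 with averaged probe sets, Tk1 with averaged probe sets or without a trend, and Cdc20 in all of these but the lower floor.

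**Figure D1:**
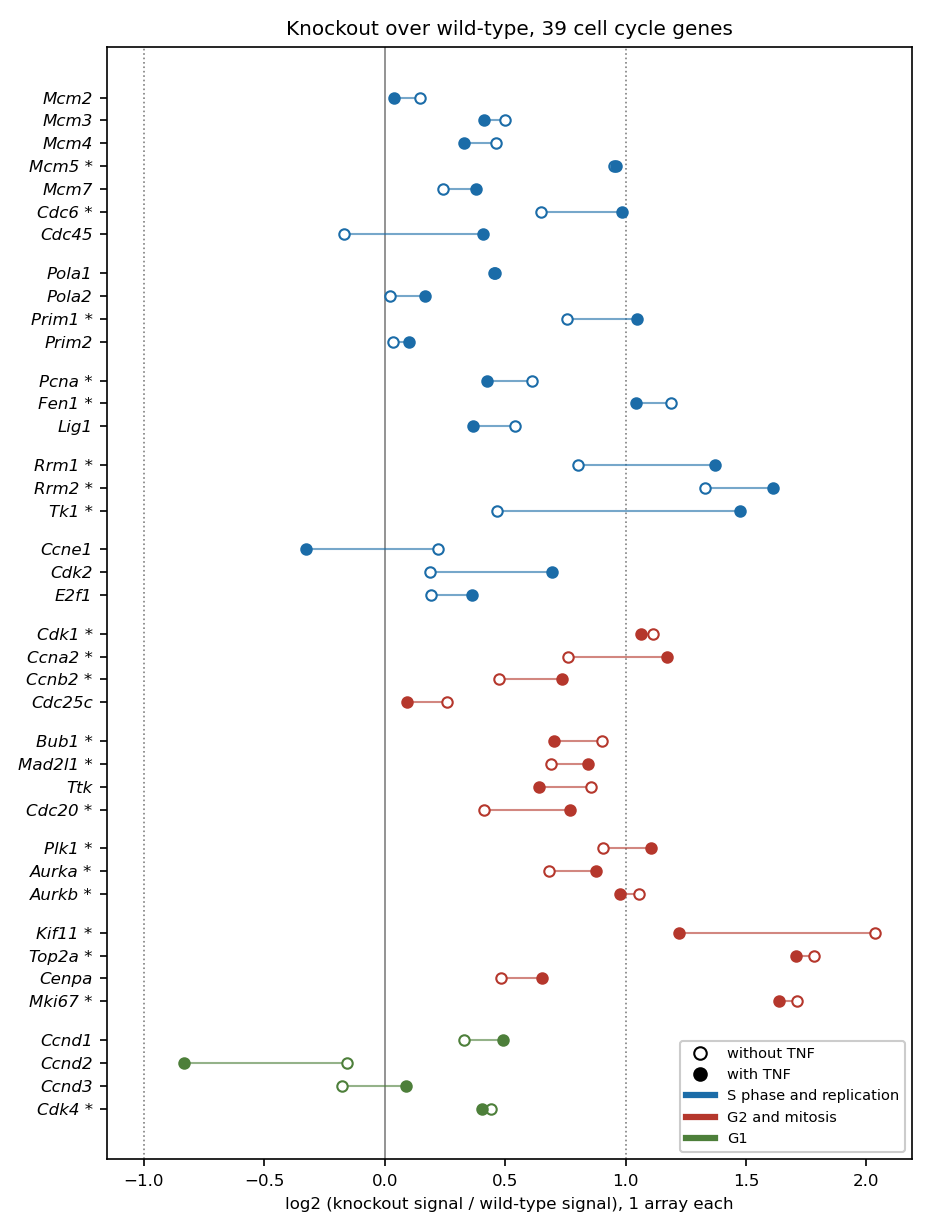
Log2 ratio of knockout to wild-type signal (x axis) for each of the 39 measured genes (y axis), without TNF (open points) and with TNF (filled points), 1 array per group. Colours give the group, dotted lines mark 2-fold, and asterisks mark the 21 genes past an adjusted p of 0.05 in the additive limma fit. All 15 mitotic genes lie to the right of 0 at both points.

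The enzymes that supply nucleotides include Rrm2, the S-phase gene with the widest genotype difference. Rrm2, the small subunit of ribonucleotide reductase, had signals of 324 and 242 in wild-type cells without and with TNF and of 813 and 739 in knockout cells. Both knockout arrays were high, at 2.51-fold without and 3.05-fold with TNF (limma, log2 difference 1.47, SE 0.19, adjusted p = 0.00283). Rrm1, the large subunit of the same enzyme, had signals of 703 and 444 in wild-type and 1228 and 1150 in knockout cells. Its difference was 1.75-fold without and 2.59-fold with TNF (limma, log2 difference 1.09, SE 0.17, adjusted p = 0.00671). The wild-type array with TNF was the lowest of the 4 for both subunits.

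Tk1, the thymidine kinase of dividing cells, had signals of 697 and 462 in wild-type and 962 and 1284 in knockout cells. The genotypes did not overlap, but the ratio was 1.38 without TNF and 2.78 with it (limma, log2 difference 0.97, SE 0.24, adjusted p = 0.0315). Thus all 3 measured genes of nucleotide supply rose in the knockout in this fit.

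Lagging-strand synthesis depends on the clamp, a flap nuclease and a ligase. Fen1, the flap nuclease, had signals of 286 and 362 in wild-type and of 653 and 747 in knockout cells, a difference of 2.28-fold and 2.06-fold (limma, log2 difference 1.12, SE 0.18, adjusted p = 0.00671). The clamp gene Pcna had signals of 1828 and 2121 in wild-type and 2792 and 2846 in knockout cells (limma, log2 difference 0.52, SE 0.10, adjusted p = 0.0141). Neither gene's genotypes overlapped, and the knockout excess of Pcna was 1.53-fold and 1.34-fold. Lig1, the replicative DNA ligase, was 1.46-fold and 1.29-fold higher without passing the test (adjusted p = 0.157 in limma).

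The subunits of the MCM helicase differed among themselves. Mcm5 had signals of 740 and 790 in wild-type and of 1430 and 1537 in knockout cells, which is 1.93-fold and 1.94-fold (limma, log2 difference 0.96, SE 0.12, adjusted p = 0.00272). Mcm3, Mcm4 and Mcm7 were higher by log2 differences of 0.46, 0.40 and 0.31 in the fit and did not pass it. Mcm3 passed under 4 of 8 other processings. Mcm2 had signals of 449 and 462 in wild-type and 498 and 474 in knockout cells, all close to each other. A second probe set of Mcm3 gave 0.66 and 0.83 on the log2 scale, larger than the 0.50 and 0.41 of the one used. The probe set used for Mcm3 is of a kind that may also bind transcripts of related sequence.

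Cdc6, which loads the helicase onto replication origins, had signals of 147 and 118 in wild-type and 230 and 233 in knockout cells (limma, log2 difference 0.82, SE 0.22, adjusted p = 0.04). Cdc45, which joins the helicase when it starts to move, went in opposite directions, at 308 and 234 in wild-type and 274 and 311 in knockout cells. Its genotypes overlapped. Of the polymerase alpha and primase genes, only the catalytic primase subunit Prim1 passed the test (limma, log2 difference 0.90, SE 0.20, adjusted p = 0.0206). Its wild-type signals of 70.4 and 60.2 lay below the floor and its knockout signals were 156 and 191, so it was at least 1.69-fold and at least 2.07-fold higher. Pola1, the catalytic polymerase subunit, was 1.37-fold higher in both states and did not pass (adjusted p = 0.187 in limma). Prim2 and the main probe set of Pola2 had log2 differences of 0.02 to 0.17.

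The regulators of the G1 to S transition did not pass the test in any case. Ccne1, which encodes cyclin E1, had signals of 633 and 739 in wild-type and 739 and 588 in knockout cells, so the genotypes overlapped and the mean difference was the smallest of the S-phase genes (log2 -0.05, SE 0.18). Cdk2, the kinase partner of cyclin E, differed by log2 0.19 and 0.69, and its dimmer probe set by 0.77 and 0.60. The transcription factor gene E2f1 differed by 0.19 and 0.36, on a probe set of a kind that may bind related family members. Its dimmer probe set differed by 0.11 and 0.71.

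Promoters of the genes with the widest differences are shown because E2F-type, CHR and CCAAT letters are the elements by which S-phase and mitotic genes are usually told apart. Sequences are RefSeq windows on build GRCm38.p6, from 250 bases before to 50 after an annotated start, on the gene's own strand. Of the 41 genes, 33 had such a window. Capitals mark the E2F-type words TTTGGCGC, TTTCCCGC, TTTGGCGG and TTTCGCGC, the CHR word TTTGAA and the word CCAAT, each on either strand. Rrm2, Fen1 and Rrm1 had the widest mean genotype differences among S-phase genes above the floor on all arrays, and Mcm5 was added after its matches were seen. The windows lie at chr12:24708004-24708303 for Rrm2, chr19:10204344-10204643 for Fen1, chr7:102441445-102441744 for Rrm1 and chr8:75109259-75109558 for Mcm5, with Fen1 on the minus strand.
Rrm2: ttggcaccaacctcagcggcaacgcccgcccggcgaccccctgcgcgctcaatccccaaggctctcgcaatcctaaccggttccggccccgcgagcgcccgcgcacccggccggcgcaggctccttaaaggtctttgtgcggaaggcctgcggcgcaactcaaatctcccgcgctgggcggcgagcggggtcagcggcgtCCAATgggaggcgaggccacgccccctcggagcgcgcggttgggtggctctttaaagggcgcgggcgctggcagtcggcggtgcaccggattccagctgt
Fen1: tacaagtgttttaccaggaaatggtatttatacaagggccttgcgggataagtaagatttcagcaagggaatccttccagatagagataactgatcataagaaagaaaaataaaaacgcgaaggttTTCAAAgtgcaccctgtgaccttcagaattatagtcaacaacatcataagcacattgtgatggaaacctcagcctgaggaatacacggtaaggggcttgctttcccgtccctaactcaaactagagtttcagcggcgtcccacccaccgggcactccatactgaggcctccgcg
Rrm1: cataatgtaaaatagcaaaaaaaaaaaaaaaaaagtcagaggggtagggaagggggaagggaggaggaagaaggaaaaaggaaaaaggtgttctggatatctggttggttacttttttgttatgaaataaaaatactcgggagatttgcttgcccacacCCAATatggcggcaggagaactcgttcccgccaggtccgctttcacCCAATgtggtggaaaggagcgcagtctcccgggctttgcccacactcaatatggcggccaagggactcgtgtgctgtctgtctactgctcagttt
Mcm5: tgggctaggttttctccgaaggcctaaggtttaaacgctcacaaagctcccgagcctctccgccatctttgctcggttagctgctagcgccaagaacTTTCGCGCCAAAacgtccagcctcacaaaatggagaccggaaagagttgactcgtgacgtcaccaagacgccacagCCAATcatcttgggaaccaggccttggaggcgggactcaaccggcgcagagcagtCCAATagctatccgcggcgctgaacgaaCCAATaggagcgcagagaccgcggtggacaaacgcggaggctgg

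The Mcm5 window held 2 overlapping E2F-type words, from 153 to 142 bases before the start, and 3 CCAAT words. The windows of Rrm2 and Rrm1 held CCAAT words alone, 1 and 2 of them. Fen1 had 1 CHR word, and the window at its other annotated start held none of these letters. An absent word says only that these exact letters are not in this window. Over the measured S-phase genes, 8 of 18 with a window held an E2F-type word (44.4%), compared with 2.7% of 27025 genes in the promoter table. A CHR word was in 3 of 18 (16.7%), compared with 20.2% of all genes. A CCAAT word was in 11 of 18 (61.1%), compared with 41.1% of all genes.

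The largest genotype differences of the whole list were in genes for the structure of mitotic chromosomes and the spindle. Kif11, the kinesin motor that pushes spindle poles apart, had signals of 154 and 206 in wild-type and of 634 and 479 in knockout cells. Both knockout arrays were high, at 4.10-fold without and 2.33-fold with TNF (limma, log2 difference 1.63, SE 0.26, adjusted p = 0.00678). Top2a, the topoisomerase that disentangles replicated DNA, had signals of 171 and 231 in wild-type and 586 and 755 in knockout cells. Its ratio was 3.44 and 3.26 (limma, log2 difference 1.74, SE 0.20, adjusted p = 0.00201).

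Mki67, which encodes the proliferation marker Ki-67, had signals of 139 and 163 in wild-type and of 455 and 508 in knockout cells. The ratio was 3.27 and 3.11, nearly the same in both states (limma, log2 difference 1.67, SE 0.21, adjusted p = 0.00291). Its other probe set, at 54.8 to 92.9, reached the floor on 1 array and gave no usable ratio. Cenpa, the histone variant of the centromere, was 1.40-fold and 1.57-fold higher and did not pass the test (adjusted p = 0.114 in limma).

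Entry into mitosis is driven by Cdk1 with cyclins A and B. Cdk1 had signals of 650 and 787 in wild-type and 1409 and 1644 in knockout cells, a difference of 2.17-fold and 2.09-fold (limma, log2 difference 1.09, SE 0.12, adjusted p = 0.0018). Ccna2, cyclin A2, had signals of 988 and 767 in wild-type and 1673 and 1731 in knockout cells (limma, log2 difference 0.97, SE 0.14, adjusted p = 0.00445). Ccnb2, cyclin B2, had signals of 1553 and 1215 in wild-type and 2158 and 2023 in knockout cells (limma, log2 difference 0.61, SE 0.11, adjusted p = 0.0126). In none of these genes did the genotypes overlap. Cdc25c, the phosphatase that activates Cdk1, showed the smallest difference of the mitotic genes on the probe set used. Its signals there were 262 and 250 in wild-type and 314 and 266 in knockout cells (limma, log2 difference 0.17, SE 0.22, adjusted p = 0.62). That probe set is of a kind that may also bind transcripts of related sequence. The dimmer one gave larger log2 differences, 0.47 without and at least 0.51 with TNF, beside 0.26 and 0.09.

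All 3 mitotic kinase genes rose in the knockout. Plk1, polo-like kinase 1, had signals of 742 and 682 in wild-type and 1390 and 1469 in knockout cells (limma, log2 difference 1.01, SE 0.13, adjusted p = 0.00287). Its other probe sets gave log2 differences of 1.36 and 1.47, and of 0.80 and 0.41. Aurkb, the kinase of the chromosomal passenger complex, had signals of 241 and 260 in wild-type and 502 and 511 in knockout cells (limma, log2 difference 1.02, SE 0.20, adjusted p = 0.0144). The spindle pole kinase gene Aurka had signals of 320 and 286 in wild-type and 514 and 525 in knockout cells (limma, log2 difference 0.78, SE 0.19, adjusted p = 0.033). The genotypes were separate in each kinase.

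The spindle checkpoint, which delays separation of chromosomes until all are attached, gave moderate differences. Mad2l1 had signals of 407 and 488 in wild-type and 656 and 877 in knockout cells (limma, log2 difference 0.77, SE 0.16, adjusted p = 0.0185). Bub1 had signals of 146 and 137 in wild-type and 272 and 224 in knockout cells (limma, log2 difference 0.80, SE 0.21, adjusted p = 0.0403). The checkpoint kinase gene Ttk was 1.81-fold and 1.56-fold higher and just missed the threshold (adjusted p = 0.053 in limma). It passed under 5 of 8 other processings. Cdc20, the activator of the anaphase-promoting complex that the checkpoint restrains, had signals of 1202 and 1063 in wild-type and 1602 and 1814 in knockout cells (limma, log2 difference 0.59, SE 0.13, adjusted p = 0.0206). None of these genes reached 2-fold.

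**Figure D2:**
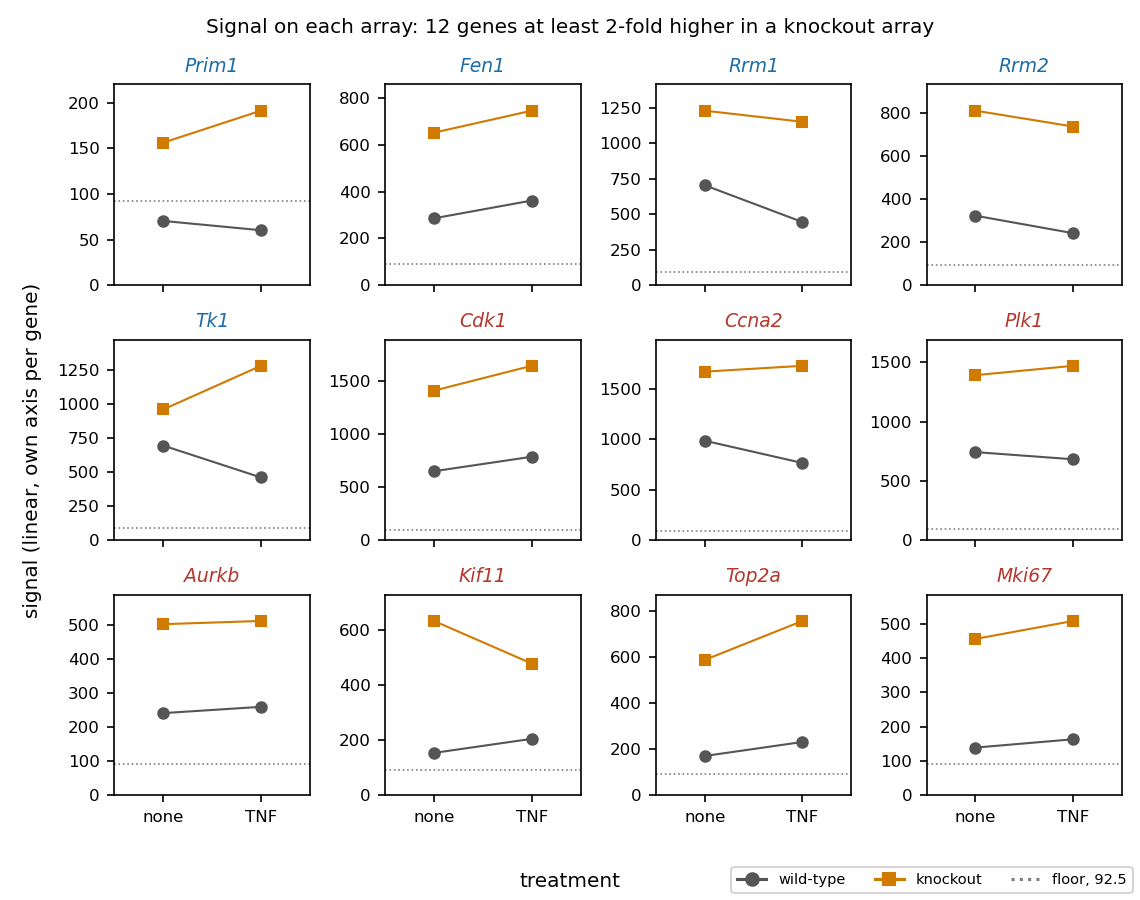
Signal on a linear scale (y axis, own range per gene, starting at 0) without and with TNF (x axis) in wild-type (circles) and knockout (squares) cells, 1 array per point, for the 12 genes at least 2-fold higher in knockout cells in at least 1 state. The dotted line is the floor of 92.5. Both knockout points lie above both wild-type points in every panel.

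The promoters of the mitotic genes with the widest differences are given in the same way, with Cdk1 added because it held all 3 kinds of word. The windows lie at chr11:99024140-99024439 for Top2a, chr7:135716330-135716629 for Mki67, chr19:37376132-37376431 for Kif11 and chr10:69352863-69353162 for Cdk1, with all but Kif11 on the minus strand. Capitals mark the same words as above.
Top2a: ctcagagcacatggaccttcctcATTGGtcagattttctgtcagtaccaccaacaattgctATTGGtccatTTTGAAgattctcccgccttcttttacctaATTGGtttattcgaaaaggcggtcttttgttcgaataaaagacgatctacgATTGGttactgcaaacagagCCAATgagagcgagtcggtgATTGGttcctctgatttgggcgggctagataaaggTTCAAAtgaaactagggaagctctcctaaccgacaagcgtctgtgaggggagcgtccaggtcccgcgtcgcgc
Mki67: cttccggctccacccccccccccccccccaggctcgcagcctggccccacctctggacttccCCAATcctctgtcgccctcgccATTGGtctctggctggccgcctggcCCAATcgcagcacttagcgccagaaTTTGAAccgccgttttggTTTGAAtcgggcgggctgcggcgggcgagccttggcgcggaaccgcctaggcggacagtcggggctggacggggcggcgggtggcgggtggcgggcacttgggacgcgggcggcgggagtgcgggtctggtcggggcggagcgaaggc
Kif11: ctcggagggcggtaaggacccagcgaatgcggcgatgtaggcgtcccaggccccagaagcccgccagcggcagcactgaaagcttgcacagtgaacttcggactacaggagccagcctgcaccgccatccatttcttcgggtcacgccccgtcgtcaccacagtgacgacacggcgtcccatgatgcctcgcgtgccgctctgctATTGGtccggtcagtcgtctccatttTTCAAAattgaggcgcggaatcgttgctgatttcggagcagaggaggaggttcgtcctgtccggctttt
Cdk1: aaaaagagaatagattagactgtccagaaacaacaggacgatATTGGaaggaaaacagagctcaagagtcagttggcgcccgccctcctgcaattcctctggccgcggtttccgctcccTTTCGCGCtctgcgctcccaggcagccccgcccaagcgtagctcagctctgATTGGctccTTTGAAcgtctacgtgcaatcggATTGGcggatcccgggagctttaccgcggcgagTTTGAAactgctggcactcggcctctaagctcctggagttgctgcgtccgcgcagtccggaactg

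Each of these windows held at least 1 CHR word and at least 1 CCAAT word. In Top2a the CHR word nearest the start lay 23 to 18 bases before it, in Kif11 19 to 14 and in Cdk1 15 to 10, while the pair in Mki67 began 116 and 98 bases before. Over the measured mitotic genes, 10 of 12 with a window held the CHR word (83.3%), compared with 20.2% of all genes. A CCAAT word was in 11 of 12 (91.7%), compared with 41.1%. An E2F-type word was in 1 of 12, Cdk1 (8.33%).

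The genotype difference was also described by these letters. Among genes of the list with a window, the 13 with a CHR word had a median log2 difference of 0.78 in the additive fit and the 11 with neither a CHR nor an E2F-type word one of 0.77. The 9 with an E2F-type word, 8 of them S-phase genes, had a median of 0.46. Outside the list, 708 measured genes with a CHR word had a median of 0.05 and 12.9% of them rose. The 254 with an E2F-type word had a median of 0.17 and 14.2% of them rose. All 4947 measured genes outside the list with a window had a median of 0.02, and 11.4% rose. These values are descriptions without a test.

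The G1 genes had no common direction. Cdk4, the kinase of the D cyclins, had signals of 4723 and 4651 in wild-type and 6407 and 6155 in knockout cells (limma, log2 difference 0.42, SE 0.08, adjusted p = 0.0154). Its dimmer probe set gave 0.54 without and 1.52 with TNF. Ccnd1, cyclin D1, had signals of 963 and 1091 in wild-type and 1209 and 1535 in knockout cells, without overlap (adjusted p = 0.052 in limma). Ccnd1 passed under 3 of 8 other processings. The dimmer probe set of Ccnd1 gave log2 differences of 0.61 without and 0.81 with TNF, larger than the 0.33 and 0.49 of the one used. Ccnd2, cyclin D2, was the gene with lower knockout signals, at 2501 and 3299 in wild-type and 2246 and 1854 in knockout cells (limma, log2 difference -0.49, SE 0.16, adjusted p = 0.0744). It passed with equal medians (limma, adjusted p = 0.0321), with no floor (0.0367) and among genes above the floor on all arrays (0.0295). Ccnd3 overlapped between the genotypes, at 1267 and 894 against 1119 and 952.

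**Figure D3:**
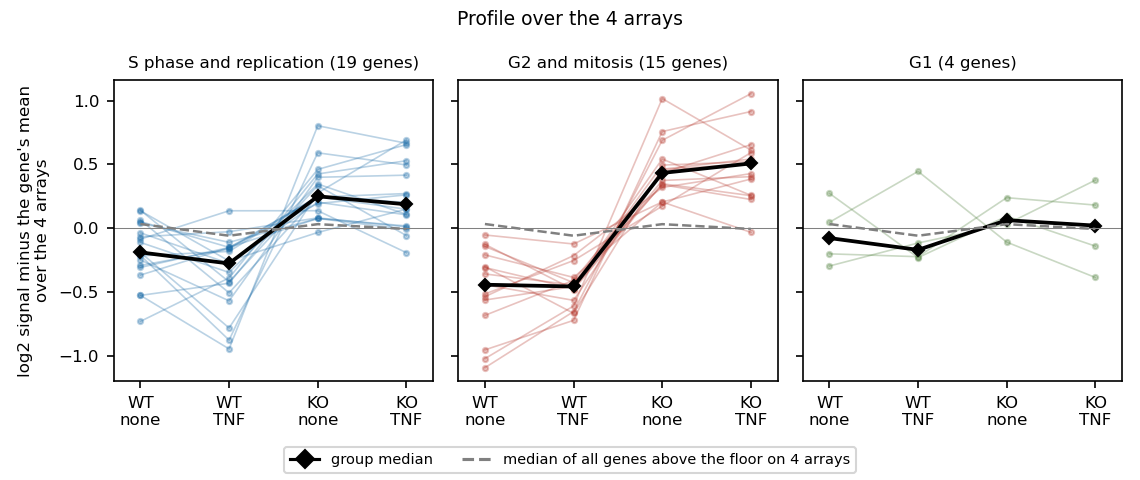
Log2 signal minus the gene's own mean over the 4 arrays (y axis) on each array (x axis; WT, wild-type; KO, knockout) for the genes of each group above the floor on all arrays. Thin lines are genes, diamonds the group median, and the dashed line the median of the 5130 genes above the floor on all arrays. The step lies between the genotypes and is 0.44 below to 0.43 above in the unstimulated mitotic medians, and 0.19 below to 0.25 above in the S-phase medians.

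Across the 4 arrays, the mitotic median stood at -0.44 and -0.46 relative to each gene's mean in wild-type cells without and with TNF, and at 0.43 and 0.51 in knockout cells. The S-phase median stood at -0.19, -0.28, 0.25 and 0.19 on the same arrays. The medians of all genes stayed between -0.06 and 0.03. Both groups thus stepped with genotype, and the step between TNF states was small beside it.

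Changes of the cell cycle genes after 4 hours of TNF were about as small as those of all measured genes in both genotypes. No gene of the list reached 2-fold in either direction in wild-type cells (38 measured; background 2.64% higher and 2.61% lower of 5911 genes) or in knockout cells (39 measured; background 1.48% and 0.409% of 5868). These counts and the widest changes, 1.58-fold in wild-type and 1.34-fold in knockout cells, are for the brightest probe set of each gene. Among dimmer probe sets, that of Pola2 was 2.34-fold lower with TNF in wild-type and at least 2.24-fold higher in knockout cells. Those of E2f1 and Cdk4 were 1.76-fold and 1.72-fold lower in wild-type cells. In the additive limma fit none of 39 passed an adjusted p of 0.05 for TNF, beside 1.28% of all genes higher and 0.162% lower, and at an unadjusted p under 0.05 none was higher and 1, Ccnd3, lower, beside 6.48% and 7.52%. A missed threshold does not show that the levels were equal. Changes under 1.2-fold were seen in 21 of 38 genes in wild-type and 29 of 39 in knockout cells, beside 50.9% and 69.9% of all measured genes.

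**Figure D4:**
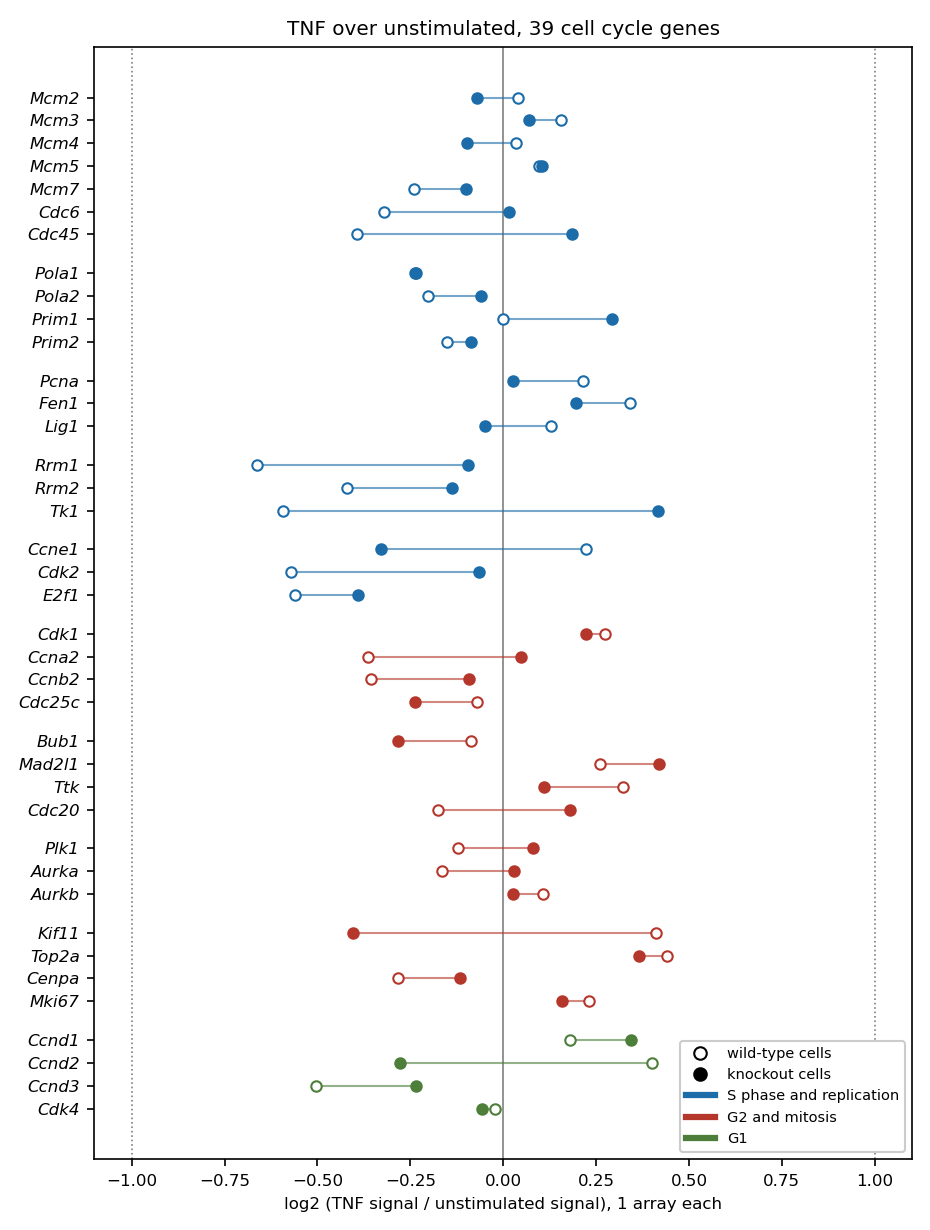
Log2 ratio of TNF-treated to unstimulated signal (x axis) for each of the 39 genes (y axis) in wild-type (open points) and knockout cells (filled points), 1 array per group. Dotted lines mark 2-fold, and no point reaches them; Prim1 sits at 0 in wild-type cells because both signals lie below the floor.

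The median log2 change with TNF in wild-type cells was -0.20 for the S-phase genes, -0.07 for the mitotic genes and -0.10 for all genes, but with quantile normalization the group medians were 0.02 and 0.22 and with equal array medians 0.08 and 0.21. The same medians in the knockout were -0.06, 0.05 and -0.04. The direction of the small wild-type medians thus depended on the normalization, and the cause was not tested. Equal array medians moved the median change of all genes tested in wild-type cells from -0.07 to 0.16, and the genotype difference with TNF from 0.04 to -0.09 for all genes and from 0.69 to 0.49 for the cell cycle genes.

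Within the S-phase group all 3 nucleotide supply genes had negative log2 TNF changes in wild-type cells. The log2 change was -0.66 for Rrm1, -0.59 for Tk1 and -0.42 for Rrm2 there, and -0.095, 0.42 and -0.14 in knockout cells. Cdk2 and E2f1 were at -0.57 and -0.56 in wild-type and at -0.06 and -0.39 in knockout cells. Fen1 and Pcna were at 0.34 and 0.21 in wild-type and at 0.19 and 0.03 in knockout cells, so the replication genes did not move as 1 group. Among mitotic genes, Top2a was at 0.44 and 0.36, Mad2l1 at 0.26 and 0.42 and Cdk1 at 0.27 and 0.22, each positive in both genotypes. Ccnb2, Cenpa and Bub1 were negative in both, between -0.35 and -0.09. None of these changes was called in the fit.

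The difference between the genotypes' TNF responses had no test, since it is the residual of the model. Tk1 was the only gene of 39 past 2-fold, at a log2 difference of 1.01, beside 2.53% of 6174 genes with a larger and 1.13% with a smaller response in the knockout. With quantile normalization, equal medians or no floor Tk1 was under 2-fold. Kif11 had the most negative value, at -0.82, from a change of 0.41 in the wild-type and of -0.40 in the knockout. The median was 0.10 for S-phase genes, -0.05 for mitotic genes and 0.04 for all genes.

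Other genes of the same processes were examined from lists drawn up by function, with earlier results of these data known. The lists are therefore not independent of these values. Of 36 further mitotic genes measured, 24 rose in the knockout and none fell in the additive limma fit, beside 11.4% of all genes higher and 10.4% lower, with a median log2 difference of 0.78. Plk4, the kinase of centriole duplication, was 2.68-fold and 2.11-fold higher (limma, adjusted p = 0.00489). Ect2, which positions the cleavage furrow, was 2.14-fold and 2.47-fold higher (limma, adjusted p = 0.00671), and the chromatin protein gene Hmgb2 2.10-fold and 2.13-fold (limma, adjusted p = 0.0137). Of 37 further replication genes, 5 rose and none fell, with a median of 0.24, a share close to the 11.4% of all genes that rose. These 5, named after their values were seen, were Brca1, Cdt1, Pold2, Rfc5 and Uhrf1.

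**Figure D5:**
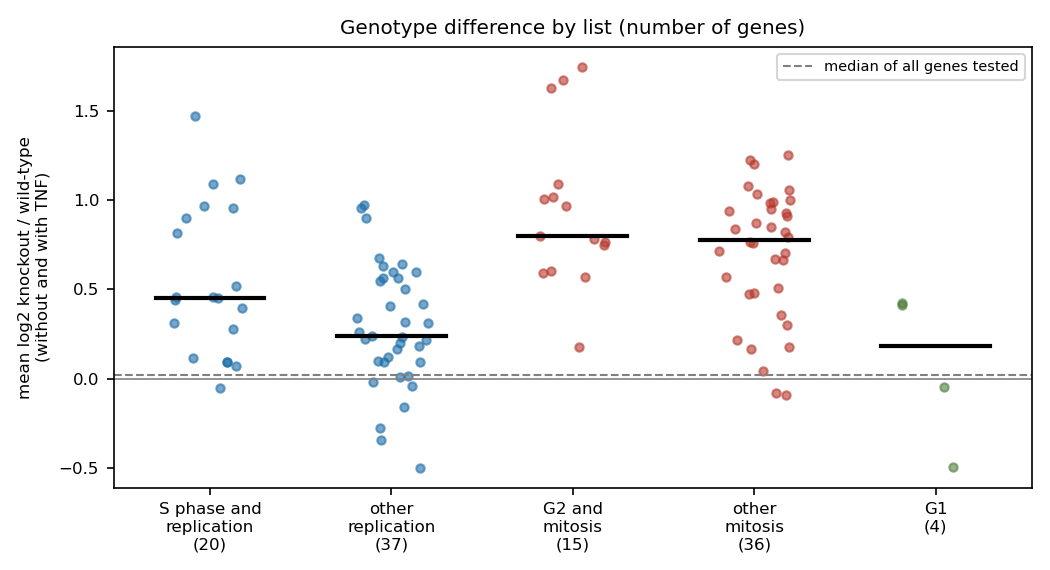
Mean of the log2 knockout to wild-type ratios without and with TNF (y axis) for each measured gene, by list (x axis, number of genes in brackets). Bars are medians, the dashed line is the median of all 6174 genes at 0.02, and the sideways scatter is for legibility. The medians are 0.45 and 0.24 for the replication lists and 0.80 and 0.78 for the mitotic lists.

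Some inhibitors of the cyclin-dependent kinases, which hold cells in G1, differed between the cultures, in both directions, and others did not. Cdkn2a had signals of 2152 and 1316 in wild-type and 72.3 and 107 in knockout cells, and Cdkn2b 1577 and 1722 against 6.3 and 3.2. Cdkn1a was higher in knockout cells, at 490 and 579 against 1328 and 1299, as was Cdkn1c, at 26.9 and 20.5 against 654 and 468. Cdkn2d rose less (limma, log2 difference 0.78, adjusted p = 0.0493). Cdkn1b and Cdkn2c did not pass the fit (limma, log2 differences 0.06 and -0.03, adjusted p = 0.844 and 0.925). Of 10 fibroblast markers, 1 was called higher and 2 lower for genotype in the additive limma fit, beside 11.4% and 10.4% of all genes. S100a4 was higher in knockout cells (1351 and 1226 against 4106 and 4144). Thy1 (1120 and 1384 against 308 and 219) and Pdgfrb (925 and 791 against 569 and 429) were lower. Col1a1, Col1a2, Col3a1, Fn1, Postn, Pdgfra and Vim were not called. The inhibitors and markers that differed move with genotype as the cell cycle genes do, and their part in that difference was not tested.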

How the data were processed

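The authors deposited linear intensities of probe sets from MAS5, a program named in the submitters' processing notes. Its version, detection calls and scaling target are not given in these sources. After leaving out 2% of the probe sets at each end, the mean was 500.3 on each of the 4 arrays, so rescaling changed nothing. Groups came from the sample titles. Probe sets were named through the platform annotation: 10833 had 1 gene symbol, 396 several and 1193 none, and 66 controls were left out. The brightest probe set by mean signal stood for a gene. Signals were floored at 92.5, and a gene counted in a comparison if 1 of its arrays exceeded the floor. A floor makes differences of dim genes smaller, and one with 1 side at the floor is a lower bound.

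Differences of log2 signal were counted at 2-fold. The additive fit used lmFit and eBayes with an intensity trend in limma 3.58.1 under R 4.3.3 (1 residual and 5.62 prior degrees of freedom, 2-sided). It was also run on simulated data with random noise and changes larger than the fitted differences of the cell cycle genes. The simulation held no difference of TNF response and no difference between cultures, so it does not check the calls made here. Motif words were matched exactly. Genes with values on every array are those 2-fold different or called, and the S-phase and mitotic gene with the smallest difference; Mcm2, Cdc45 and the D cyclins were added after their values were seen. Members and lists were chosen with earlier results of these data known. Alternatives changed scaling, floor, filter, probe set rule, variance trend and unit of the fit.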

Additional observations from a re-analysis of the deposited data

Results flagged for a closer look

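For 3 genes, TNF-treated and unstimulated arrays differed in opposite directions in the genotypes by at least 1.2-fold each. Kif11 had a log2 change with TNF of 0.41 in the wild-type and of -0.40 in the knockout, and both knockout signals stayed above both wild-type signals. Tk1 had a change of -0.59 in the wild-type and of 0.42 in the knockout, and Ccnd2 one of 0.40 and -0.28. With 1 array per group none of these differences was tested.

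The dimmer probe set of Pola2, which encodes the accessory subunit of polymerase alpha, had signals of 327 and 140 in wild-type and 60.0 and 207 in knockout cells. On floored values its log2 change with TNF was -1.23 in wild-type cells and 1.16 in the knockout, and its log2 knockout to wild-type ratio was -1.82 without and 0.57 with TNF. The brighter probe set of the same gene had changes of -0.20 and -0.06 and ratios of 0.02 and 0.17, so the probe sets disagree. The difference was not tested.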

How the results depend on the processing

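Of the 21 genes called for genotype, 12 stayed called under every alternative fitted: 9 of 12 mitotic genes, 3 of 8 S-phase genes (Fen1, Prim1, Rrm2) and not Cdk4. Prim1 could not be fitted among genes above the floor on all arrays. Mcm5 and Rrm1 lost the call with the mean of all probe sets, which admits a probe set below the floor. The called genes numbered 16 to 24, and 1 gene was called lower with equal medians, with no floor and among genes above the floor on all arrays. With TNF, 7 genes were 2-fold higher with equal medians or the mean of probe sets, and equal medians gave 1 lower gene and medians of 0.22 (S phase) and 0.68 (mitosis). Without TNF and with no floor the mitotic median was 0.72. For TNF in wild-type cells the S-phase median was 0.0175 (quantile) or 0.0771 (equal medians) and the mitotic median 0.22 or 0.21. For the difference of response, 0 genes were 2-fold larger with quantile normalization, equal medians or no floor, and 1 was 2-fold smaller with the first 2; the S-phase median was -0.0428 (quantile) or turned to -0.13 (equal medians), and the mitotic median -0.28 (equal medians). The cause of these shifts was not tested. The floor at the 20th percentile moved no count past 1.5 times. No paired analysis was possible because each group has 1 array and no replicate numbers. The number of arrays limits the precision.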

Other observations

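Among replication genes outside the main list, Orc4 and Orc6, which encode subunits of the origin recognition complex, had lower knockout signals. Orc4 had signals of 650 and 714 in wild-type and 469 and 497 in knockout cells, and Orc6 had 579 and 557 against 444 and 454, so both knockout arrays lay below both wild-type arrays in each. Neither passed the limma fit (adjusted p = 0.0713 and 0.215). The other measured subunit genes went the other way: both knockout arrays lay above both wild-type arrays for Orc1, Orc2 and Orc5, which did not pass either (limma, adjusted p = 0.736, 0.17 and 0.213).

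Wee1, the kinase that restrains Cdk1, was 1.87-fold higher without and 2.92-fold higher with TNF in knockout cells (limma, log2 difference 1.22, SE 0.25, adjusted p = 0.0156). Chaf1b, a subunit of the chromatin assembly factor that follows the replication fork, had signals of 450 and 203 in wild-type and 492 and 446 in knockout cells without and with TNF. It was the 1 further replication gene 2-fold lower with TNF in wild-type cells, and the genotypes overlapped apart from that array. Zw10, a kinetochore gene, had signals of 126 and 187 in wild-type and 214 and 97.8 in knockout cells, and its log2 difference of response was -1.69, the most negative of the further mitotic genes. These genes were chosen after their values were seen.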
